A study of Mus musculus with 4 samples.

Results

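The 10 genes described here, *Pdgfra*, *Pdgfrb*, *Acta2*, *Tagln*, *Dcn*, *Lum*, *Fap*, *Thy1*, *Pdpn* and *S100a4*, are widely used as markers of fibroblasts and of myofibroblasts, their contractile form. They were taken as a list of names, with no threshold on their values, after earlier results of these data were known. All 10 are among the 25239 gene symbols counted in each library, and all 10 passed the expression filter that left 13919 genes for testing. The libraries are RNA-Seq libraries of CD4+ T cells isolated out of lung tumors (2 WT and 2 CD4/ALK4-KO by their labels), and the question asked of them by the study was how the loss of activin-A signaling alters these T cells. All mice were on the C57BL/6 background and bore tumors of LLC-OVA, Lewis lung carcinoma cells made to express ovalbumin, inoculated intravenously. The methods give male mice aged 8 to 10 weeks. CD4/ALK4-KO mice carried CD4CreERT2+/- and Acvr1bfl/fl, so that tamoxifen, given in 5 doses of 75 mg/kg, induces Cre under the *Cd4* promoter and deletes *Acvr1b*, the gene of the activin receptor ALK4, in cells that use that promoter. Whether the WT mice carried Cre or received tamoxifen is not given in the sources used here. Tumors were excised after 18 to 22 days according to the labels and 16 to 20 days according to the methods. Nothing states whether each library came from 1 mouse or a pool, so the p-values measure the spread between these libraries.

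Fibroblasts build the collagen and proteoglycan matrix of a tissue, and receptors for platelet-derived growth factor (PDGF) drive their growth and migration. In wounds and tumors, transforming growth factor beta and stiff matrix turn fibroblasts into myofibroblasts, which assemble smooth muscle actin fibers through serum response factor (SRF) and its coactivators. Tumor stroma holds both forms. Several of these genes are not restricted to fibroblasts: *Thy1* is a surface glycoprotein of mouse T cells, *S100a4* is transcribed in many leukocytes and tumor cells, and *Pdpn* marks alveolar type I, mesothelial and lymphatic endothelial cells.

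Upstream sequences are shown for *S100a4* and *Acta2*, which differed between the genotypes, and for *Pdgfra*, which did not pass the test. They are from RefSeq (GRCm38.p6), which gave a promoter for 4 of the 10 genes (*Pdgfra*, *Acta2*, *Pdpn* and *S100a4*). The 250 bases before the start of *S100a4*, at chr3:90603520-90603769 on the plus strand, lie between the GENCODE M21 genes *S100a3* and *S100a4*, with the letters TATAAA in capitals at position -31. The 250 bases before the start of *Pdgfra*, at chr5:75152001-75152250 on the plus strand, end just before the GENCODE gene. For *Acta2*, 30-base stretches are shown around its CArG boxes, the motif bound by SRF, at -84 (chr19:34255438-34255467) and -34 (chr19:34255388-34255417) on the minus strand. The capitals mark the box, and both stretches lie inside the longer GENCODE gene model of *Acta2*.
S100a4: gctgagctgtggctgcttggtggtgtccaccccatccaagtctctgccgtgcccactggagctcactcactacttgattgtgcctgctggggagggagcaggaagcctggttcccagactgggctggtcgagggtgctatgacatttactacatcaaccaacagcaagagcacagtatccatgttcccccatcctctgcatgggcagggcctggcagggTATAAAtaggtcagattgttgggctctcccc
Pdgfra: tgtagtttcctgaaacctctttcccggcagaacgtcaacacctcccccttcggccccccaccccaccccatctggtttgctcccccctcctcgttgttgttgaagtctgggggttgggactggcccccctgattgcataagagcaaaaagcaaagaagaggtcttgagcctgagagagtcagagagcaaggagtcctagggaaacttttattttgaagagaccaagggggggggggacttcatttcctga
Acta2 CArG box at -84: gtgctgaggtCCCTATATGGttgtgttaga
Acta2 CArG box at -34: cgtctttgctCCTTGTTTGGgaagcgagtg
The motifs below were searched in the 250 upstream bases of these genes and of all 32851 promoters. TATAAA, searched on the strand of the gene, was found in *S100a4* alone of the 4 genes and in 7.59% of all promoters. The CArG box, with at most 1 core base other than A or T and the same on both strands by its symmetry, was found in *Acta2* alone and in 8.59% of all promoters. CATTCC, a motif of TEAD factors, was searched on both strands, and it was found at -146 in *Acta2*, apart from both CArG boxes, and in 12.6% of all promoters. TGANTCA, a motif of AP-1 factors, was searched on both strands and was found in none of the 4 genes and in 6.75% of all promoters. These matches describe the letters and do not show binding.

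The libraries hold RNA of more cells than their label names, although the leukocytes were taken between 40% and 80% Percoll and the CD4+ cells were then isolated with a kit, steps meant to remove other cells. Total counts ran from 11823908 to 13943237. *Acvr1b* did not separate the genotypes, with 426 and 342 counts in WT and 322 and 445 in CD4/ALK4-KO (log2 fold change 0.16, SE 0.24, adjusted p = 0.66), so each direction here is between labels. These counts cover the whole gene and RNA of other cells as well, so they cannot show whether *Acvr1b* was deleted in the CD4+ cells. The deletion itself was not tested. *Cd4*, the gene of the selected surface protein, was at 51.7 ± 5.24 CPM in WT and 317 ± 13.9 CPM in CD4/ALK4-KO (SD, n = 2; log2 fold change 2.62, adjusted p = 2.8e-08). CPM are counts scaled by the library size after TMM normalization. Each of the 16 T cell markers rose in CD4/ALK4-KO, and their summed level was 483 to 522 CPM in WT and 2616 to 2785 CPM in CD4/ALK4-KO. Macrophage markers summed to 7667 and 8071 CPM in WT and to 7125 and 6948 CPM in CD4/ALK4-KO, above the T cell sum in every library. Most of each macrophage sum was *Lyz2*, at 4278 and 5687 CPM in WT and 4758 and 4227 CPM in CD4/ALK4-KO. In CD4/ALK4-KO replicate 1 the order of the macrophage and T cell sums therefore reverses without that gene, while in replicate 2 it holds. Genes used here as tracers of tumor cells, *Rhox5*, *Plac1*, *Peg10* and *H19*, which are little used in adult lung or lymphocytes, summed to 448 CPM in both WT libraries and to 59.4 and 75.2 CPM in CD4/ALK4-KO. The 6 B cell markers rose as well. Of 9 endothelial markers, *Pecam1*, which leukocytes also use, rose from 22.5 and 42.7 CPM to 106 and 108 CPM, *Cldn5* fell, the other 7 did not pass the test, and the list median was -0.54. *Cldn5* had 37 and 35 counts in WT and 8 and 14 in CD4/ALK4-KO. Its call (adjusted p = 0.049) was lost with DESeq2's size factors (0.051) and with the replicate number as a block (0.091). In such bulk samples, fewer cells of a type and less RNA per cell cannot be told apart.

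Between the genotypes, the 10 genes did not move as a block. In CD4/ALK4-KO, *S100a4*, *Lum*, *Acta2*, *Dcn* and *Pdgfrb* fell, *Thy1* rose, and *Pdgfra*, *Tagln*, *Fap* and *Pdpn* did not pass the test. Thus 5 of 10 were called lower, where 15.4% of all genes tested were called lower, and 1 of 10 was called higher, where 17.4% of all genes were. The median log2 fold change was -0.69 over the 10 genes and -0.0082 over all genes tested. In 7 of the 10, both WT libraries lay above both CD4/ALK4-KO libraries, as 34% of all genes did, and in 1 both CD4/ALK4-KO libraries lay above both WT libraries, as 32.7% of all genes did. The 10 genes together took 0.505% and 0.561% of all counts in WT and 0.314% and 0.284% in CD4/ALK4-KO. With the replicate number as a block, *Pdgfrb* and *Dcn* lost their calls and 3 of 10 were called lower. Every direction is relative to the bulk of genes: on a scale set by the T cell receptor complex (the 4 of its 7 listed genes that were counted), the median of all genes tested moved by -2.19 and that of the 10 genes lay at -2.89. On that scale *Thy1* stood at -0.051 and *Pdgfra* at -1.99, and, of the genes of related lists that rose, *Flna*, *Mrtfb*, *Dpp4* and *Msn* lay between -1.54 and -1.39 and *Actg2* at 0.36.

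**Figure D1:**
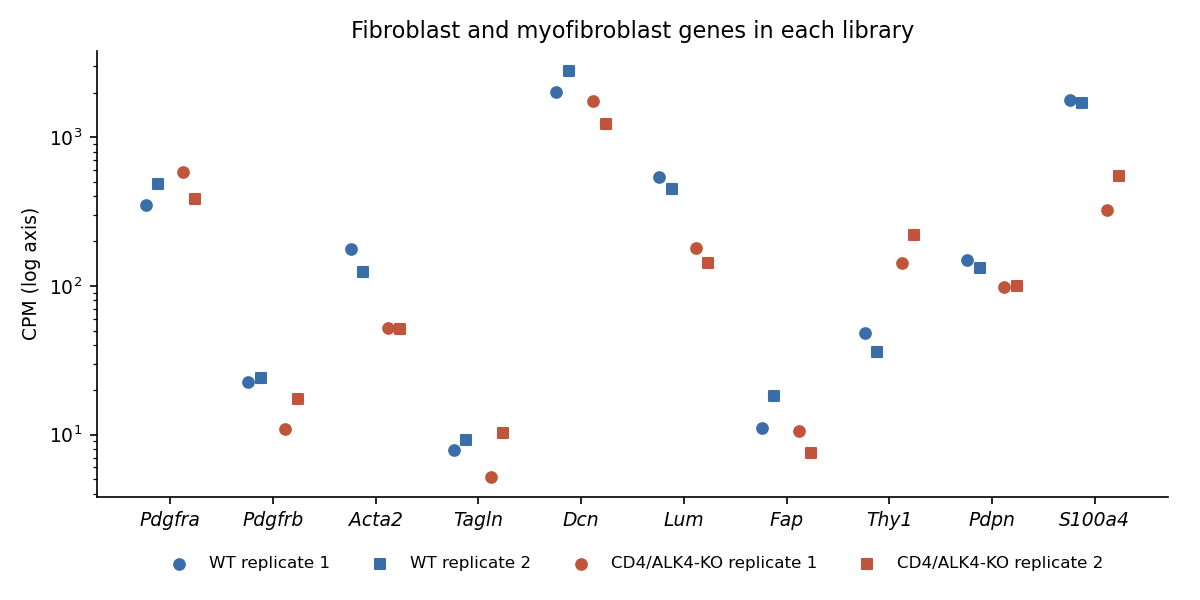
CPM of the 10 genes on a log axis, 1 point for each library, with blue for WT, red for CD4/ALK4-KO, circles for replicate 1 and squares for replicate 2. The points of the genotypes stand apart for *Acta2*, *Lum*, *Thy1* and *S100a4* and overlap for *Pdgfra* and *Tagln*.

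**Figure D2:**
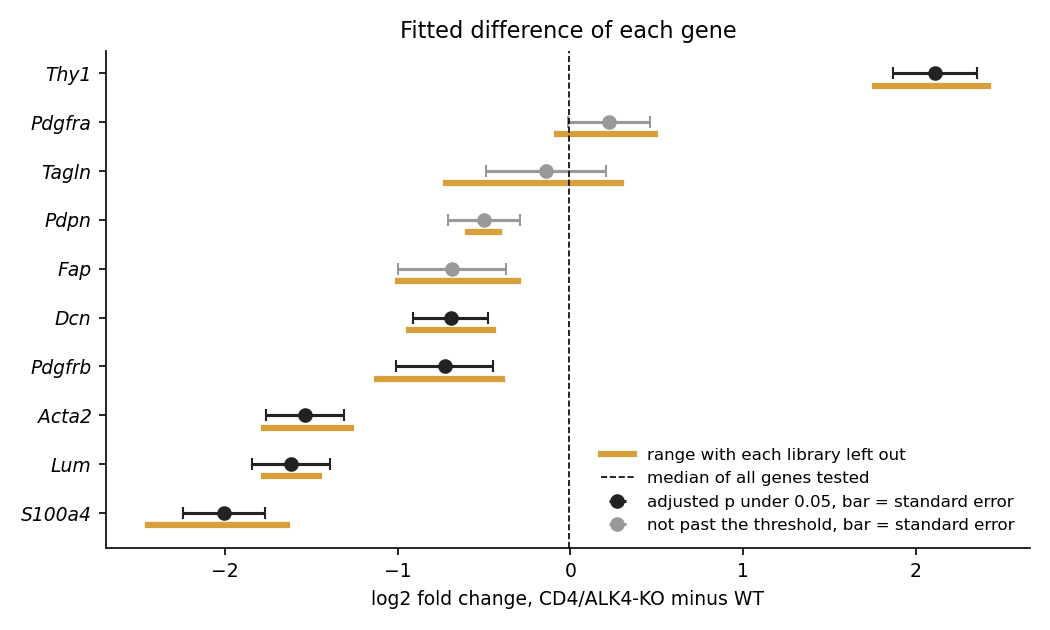
Fitted log2 fold change of each gene, CD4/ALK4-KO minus WT, with its standard error, black where the adjusted p was under 0.05 and grey otherwise. The yellow bar gives the range over fits that leave out 1 library, and the dashed line is the median of all genes tested, -0.0082. The yellow bars of *Pdgfra* and *Tagln* cross 0.

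The pair of PDGF receptors differed from each other. *Pdgfra*, the receptor alpha gene and a general fibroblast marker (chromosome 5, 75152292 to 75198215, plus strand, GRCm38), had 351 and 484 CPM in WT and 588 and 387 CPM in CD4/ALK4-KO. The groups overlapped, with the highest value in CD4/ALK4-KO replicate 1 and the lowest in WT replicate 1. Its log2 fold change was 0.22 (SE 0.24, adjusted p = 0.51). Without CD4/ALK4-KO replicate 2 it was 0.49 with a call (adjusted p = 0.021), and with that library kept and replicate 1 of the same genotype removed it was -0.079. *Pdgfrb*, the receptor beta gene, which pericytes also use, was far lower, with 22.7 and 24.2 CPM in WT and 10.8 and 17.4 CPM in CD4/ALK4-KO. Both CD4/ALK4-KO libraries lay below both WT libraries, and the spread within CD4/ALK4-KO was wider than within WT. *Pdgfrb* fell by 0.73 on the log2 scale (SE 0.28), with an adjusted p of 0.049 that leaves the call at the threshold. The call was lost with the replicate block (adjusted p = 0.11), with DESeq2's size factors (0.054) or Wald test (0.073) and without WT replicate 1 (0.20), WT replicate 2 (0.24) or CD4/ALK4-KO replicate 1 (0.27). The ratio of *Pdgfra* to *Pdgfrb* counts within a library, which does not depend on the scaling, was 15.5 and 20.03 in WT and 54.2 and 22.2 in CD4/ALK4-KO.

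The receptors' ligands were measured too. Of the 4 PDGF ligand genes, *Pdgfa* and *Pdgfc* fell and none rose. Beside the calls in this and each later list stand the 15.4% of all genes tested called lower and the 17.4% called higher. *Pdgfc*, whose product forms a homodimer that binds receptor alpha, had 34.2 and 38.8 CPM in WT and 12.7 and 14.6 CPM in CD4/ALK4-KO, and fell by 1.42 on the log2 scale (SE 0.25, adjusted p = 0.00018). *Pdgfa* fell by 1.46 (SE 0.32, adjusted p = 0.0013), a call that was lost without WT replicate 1 (adjusted p = 0.14). For *Pdgfb*, the ligand shared by both receptors, the log2 fold change was 0.76 (adjusted p = 0.14), and for *Pdgfd*, a ligand of receptor beta, -0.65 (adjusted p = 0.085). Neither passed the test.

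The contractile genes of myofibroblasts also parted. *Acta2* (chromosome 19, 34241090 to 34255590, minus strand), which encodes alpha smooth muscle actin, had 176 and 124 CPM in WT and 52.4 and 51.1 CPM in CD4/ALK4-KO. The CD4/ALK4-KO libraries were nearly alike and lay below both WT libraries. *Acta2* fell by 1.54 on the log2 scale (SE 0.22, adjusted p = 1.7e-05), a 2.90-fold difference, and stayed called under each of the 13 alternatives. *Tagln*, the gene of the actin-binding protein transgelin (chromosome 9, 45929619 to 45936058, minus strand), had 7.88 and 9.24 CPM in WT and 5.21 and 10.3 CPM in CD4/ALK4-KO. CD4/ALK4-KO held both its lowest and its highest value. Its log2 fold change was -0.14 (SE 0.35, adjusted p = 0.79), and it was 0.30 without CD4/ALK4-KO replicate 1. It rests on 62 to 127 counts, and it is uncertain for a further reason: 53.3% of its 75-base stretches also occur in genes that overlap it on the opposite strand (*Pcsk7* and *Gm48529*), and the library kit does not mark strand. *Pcsk7* (94 bp of exon overlap) is among the counted symbols, and *Gm48529* (877 bp) is not. The ratio of *Acta2* to *Tagln* counts was 22.4 and 13.5 in WT and 10.1 and 4.97 in CD4/ALK4-KO, without overlap.

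Of 18 other genes listed for the contractile apparatus of smooth muscle, 15 were tested, 6 fell and 2 rose, with a median log2 fold change of -0.56. *Cnn1*, *Myh11* and *Lmod1* of this list were too low in counts to be tested. *Tpm1*, a tropomyosin that lies along actin filaments, had 634 and 699 CPM in WT and 260 and 287 CPM in CD4/ALK4-KO, and fell by 1.29 (SE 0.21, adjusted p = 8.2e-05). *Cald1* (caldesmon, -0.76) and *Myl6* (a myosin light chain, -0.56) fell as well, and both calls were lost with the replicate block and without either WT library. *Flna*, the actin crosslinker filamin A, rose by 0.71 (adjusted p = 0.026), a call that was lost with the replicate block, without either WT library and without CD4/ALK4-KO replicate 2, which alone had 1049 CPM against 470 to 602 CPM in the others. The other gene that rose was *Actg2*, the enteric smooth muscle actin, with 9 and 4 counts in WT and 26 and 41 counts in CD4/ALK4-KO, a call lost without WT replicate 2. *Tpm2*, *Smtn* and *Vcl* completed the 6 that fell. Only 3 of the contractile genes were called lower with the replicate block or without WT replicate 2, and 2 without WT replicate 1. Of 12 markers of mature smooth muscle and pericytes, *Myh11* (4 to 12 counts in a library), *Cnn1* (2 to 11) and *Rgs5* (5 to 11) were close to 0, while *Kcnj8* had 239 to 243 counts, *Des* 39 to 84 and *Abcc9* 27 to 42. The 12 genes summed to 31.2 and 29.9 CPM in WT and to 34.4 and 32.5 CPM in CD4/ALK4-KO.

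The regulators of this program were also measured. Of 6 genes of SRF and its coactivators, 3 were tested. The log2 fold change was -0.41 for *Srf* (adjusted p = 0.20) and 0.64 for *Mrtfa*, a coactivator released by actin polymerization (adjusted p = 0.065). *Mrtfb* rose by 0.69 (adjusted p = 0.048), a call lost with the replicate block, with upper quartile scaling, with DESeq2's Wald test and without each library but CD4/ALK4-KO replicate 1. *Tgfb1*, the ligand best known for inducing myofibroblasts, had 40.8 and 30.7 CPM in WT and 39.1 and 46.4 CPM in CD4/ALK4-KO, and did not pass the test (adjusted p = 0.42).

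The matrix proteoglycans *Dcn* and *Lum* were, per kilobase, the next highest of the 10 genes after *S100a4* in WT, while in CD4/ALK4-KO *Thy1* lay above *Lum*. *Dcn* encodes decorin, which binds collagen fibrils and transforming growth factor beta, and *Lum* encodes lumican, which spaces the fibrils. They are neighbours on chromosome 10, *Dcn* at 97479609 to 97518143 and *Lum* at 97565128 to 97572703, followed on the same strand by the related genes *Kera* and *Epyc*. *Dcn* had 2017 and 2794 CPM in WT and 1744 and 1233 CPM in CD4/ALK4-KO, so that WT replicate 1 and CD4/ALK4-KO replicate 1 lay close together. *Dcn* fell by 0.69 on the log2 scale (SE 0.22, adjusted p = 0.018), and it lost its call without WT replicate 2 (log2 fold change -0.45, adjusted p = 0.40) and with the replicate block (adjusted p = 0.069). *Lum* had 539 and 450 CPM in WT and 181 and 142 CPM in CD4/ALK4-KO, with a wide gap between the genotypes. *Lum* fell by 1.62 (SE 0.23, adjusted p = 1.1e-05), a 3.07-fold difference that held its call under each of the 13 alternatives. The ratio of *Dcn* to *Lum* counts was accordingly 3.74 and 6.20 in WT and 9.64 and 8.71 in CD4/ALK4-KO. *Kera* (keratocan), named here as their neighbour, had 36 and 204 counts in WT and 8 in both CD4/ALK4-KO libraries, and its call (adjusted p = 0.014) was lost without WT replicate 2, while *Epyc* had 2 to 7 counts and was not tested.

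Among 13 other small leucine-rich proteoglycans, 10 were tested, 4 fell and none rose, with a median log2 fold change of -0.94. With a minimum of 10 counts in every library, 6 were tested and 3 fell. *Aspn*, the gene of asporin, had 122 and 163 CPM in WT and 21.7 and 25.4 CPM in CD4/ALK4-KO, and fell by 2.60 (SE 0.24, adjusted p = 4.9e-08). *Ogn* (osteoglycin) fell by 1.38 (adjusted p = 5.6e-05). *Kera* and *Omd* were the remaining members called lower, and without WT replicate 2 only *Aspn* and *Ogn* were. *Bgn*, the gene of biglycan, the closest relative of decorin, had 277 and 192 CPM in WT and 269 and 298 CPM in CD4/ALK4-KO and did not pass the test (log2 fold change 0.27, adjusted p = 0.38). The log2 fold change of *Podn* (podocan) was -0.85 (adjusted p = 0.054). The call of *Omd* rested on 18 and 50 counts in WT and 7 and 8 in CD4/ALK4-KO. It was lost with the replicate block (adjusted p = 0.056) and with DESeq2's Wald test (0.07).

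The wider fibroblast program held 34 tested genes, of which 15 fell and none rose, with a median log2 fold change of -0.70. The collagens among them differed in whether they passed the test. *Col3a1* had 2788 and 2668 CPM in WT and 1423 and 1444 CPM in CD4/ALK4-KO, and fell by 0.93 (SE 0.19, adjusted p = 0.00079), a call lost without WT replicate 1 (adjusted p = 0.052). *Col1a2* of type I collagen, by contrast, had 779 and 688 CPM in WT and 645 and 563 CPM in CD4/ALK4-KO, and did not pass the test (log2 fold change -0.28, adjusted p = 0.33). Nor did *Fn1*, the gene of fibronectin (0.086, adjusted p = 0.79), or *Vim*, the gene of the intermediate filament vimentin (-0.39, adjusted p = 0.12). Chosen after their values were seen, *Twist1*, a mesenchymal transcription factor, fell by 2.09 (adjusted p = 4.3e-06) and *Lrrc15*, a membrane protein of tumor myofibroblasts, by 1.89 (adjusted p = 2.5e-05), and the 3 type VI collagen genes *Col6a1*, *Col6a2* and *Col6a3* fell by 1.42, 1.26 and 1.11.

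**Figure D3:**
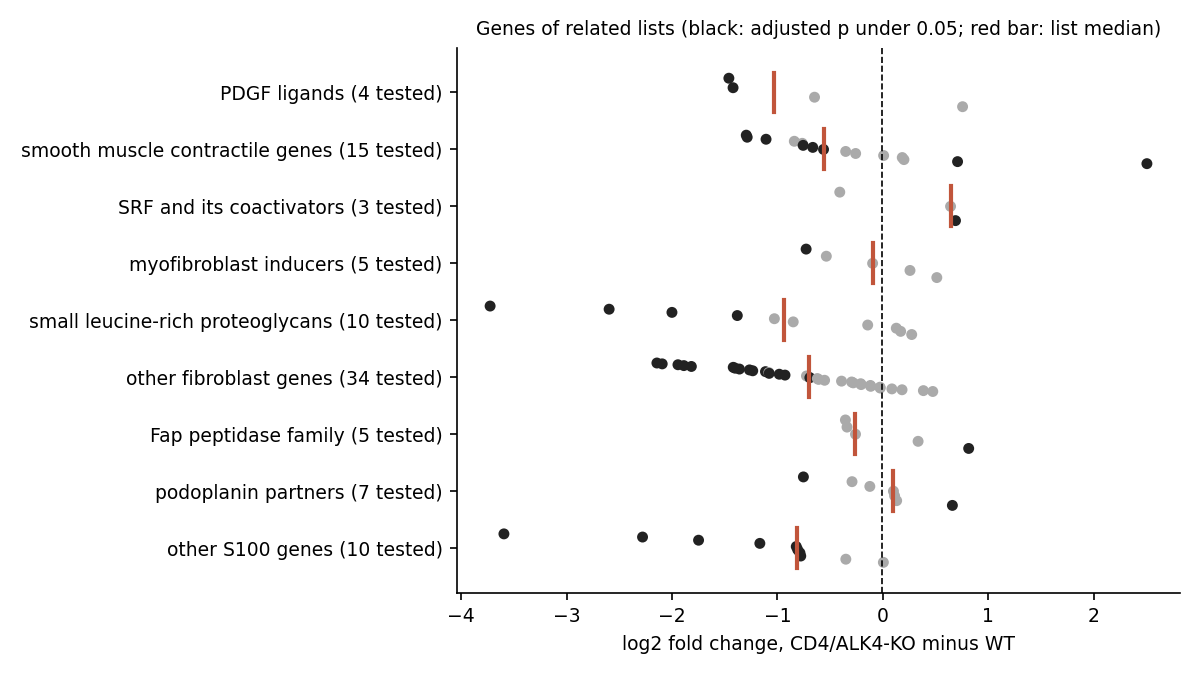
Fitted log2 fold changes of the genes of 9 related lists, CD4/ALK4-KO minus WT, with 1 point for each gene tested, black where the adjusted p was under 0.05 and grey otherwise. Red bars are the list medians and the dashed line is the median of all genes tested. The medians of the proteoglycan, S100, other fibroblast and PDGF ligand lists lie between -1.03 and -0.70.

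Of the surface proteins, *Fap* and *Pdpn* did not pass the test and *Thy1* rose. *Fap*, a serine peptidase of activated tumor fibroblasts (chromosome 2, 62500943 to 62574075, minus strand), had 11.1 and 18.0 CPM in WT and 10.6 and 7.53 CPM in CD4/ALK4-KO. The groups did not overlap, but WT replicate 1 and CD4/ALK4-KO replicate 1 differed by little. Its log2 fold change was -0.69 (SE 0.31, adjusted p = 0.097), the same size as that of *Dcn* on far fewer counts, and it was -0.92 with a call (adjusted p = 0.018) without CD4/ALK4-KO replicate 1, but -0.30 (adjusted p = 0.72) without WT replicate 2 and -0.47 (adjusted p = 0.24) without CD4/ALK4-KO replicate 2. Of its peptidase family, 5 genes were tested and *Dpp4* (CD26), the closest relative, rose by 0.82 (adjusted p = 0.0065), from 82.3 and 96.9 CPM to 180 and 136 CPM, a call lost without either WT library. The other 4 tested genes of the family did not pass the test. The ratio of *Fap* to *Dpp4* counts was 0.135 and 0.186 in WT and 0.0590 and 0.0555 in CD4/ALK4-KO. *Dpp4* is also transcribed in T cells.

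*Thy1*, a glycoprotein anchored in the membrane by a lipid (chromosome 9, 44043384 to 44048579, plus strand), had 48.2 and 36.0 CPM in WT and 143 and 220 CPM in CD4/ALK4-KO. It was the only gene of the 10 with both CD4/ALK4-KO libraries above both WT libraries. *Thy1* rose by 2.11 on the log2 scale (SE 0.24, adjusted p = 9.3e-07), a 4.32-fold difference. The T cell marker list moved beside it, with 16 of 16 genes higher, a median log2 fold change of 2.42 and no gene at 0. The ratio of *Thy1* to the summed counts of *Cd3d*, *Cd3e* and *Cd3g*, which encode the CD3 chains of the T cell receptor complex, was 0.304 and 0.241 in WT and 0.192 and 0.354 in CD4/ALK4-KO, with overlap between the genotypes. Scaled to that complex, the log2 fold change of *Thy1* was -0.051 (adjusted p = 0.84). The part of T cell RNA in the rise of *Thy1*, and of fibroblast RNA in its level, was not tested.

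*Pdpn*, the mucin-like podoplanin that binds the platelet receptor CLEC-2 (chromosome 4, 143267431 to 143299564, minus strand), had 149 and 132 CPM in WT and 98.8 and 100 CPM in CD4/ALK4-KO. Both CD4/ALK4-KO libraries lay below both WT libraries and were nearly alike. Its log2 fold change was -0.50 (SE 0.21, adjusted p = 0.070), and it passed the threshold with upper quartile scaling (adjusted p = 0.034) and without CD4/ALK4-KO replicate 2 (adjusted p = 0.041). Markers of other cell types that use *Pdpn* were counted, to unlike extents. The 6 alveolar type I markers summed to 1165 and 1111 CPM in WT and to 506 and 414 CPM in CD4/ALK4-KO, most of it *Cav1*, which endothelial cells and fibroblasts also use, while *Ager*, the defining marker, was at 2.69 to 6.13 CPM. The 6 mesothelial markers summed to 967 and 799 CPM in WT and to 708 and 571 CPM in CD4/ALK4-KO. Of 3 lymphatic endothelial markers, *Prox1* had 1 to 10 counts in a library, *Flt4* 28 to 48 and *Lyve1* 276 to 666. The ratio of *Pdpn* to *Msln* counts, a mesothelial marker, was 0.514 and 0.726 in WT and 0.626 and 0.650 in CD4/ALK4-KO, with overlap. How much of *Pdpn* came from these cells was not tested. Of 7 podoplanin partners, 1 was called higher and 1 lower, near the shares over all genes tested (17.4% and 15.4%). *Msn* (moesin, which links membrane proteins to actin) rose by 0.66 and *Cd9* (a tetraspanin) fell by 0.75. Both calls were lost with the replicate block and without either WT library, while *Cd44* (0.11) and *Ezr* (0.10) did not pass the test.

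*S100a4*, a small calcium-binding protein also called fibroblast-specific protein, had the largest fitted fall among the 10 genes. It lies on chromosome 3 at 90603771 to 90606045, on the plus strand, in a row of S100 genes with *S100a3*, *S100a5* and *S100a6*. *S100a4* had 1792 and 1713 CPM in WT and 323 and 549 CPM in CD4/ALK4-KO. The WT libraries were nearly alike, and both CD4/ALK4-KO libraries were far below them. *S100a4* fell by 2.01 on the log2 scale (SE 0.24, adjusted p = 1.3e-06), a 4.02-fold difference that kept its call under each of the 13 alternatives and lay between -2.45 and -1.64 when any 1 library was removed. GENCODE places a further transcript, *Gm42674*, over part of the gene, with 44.8% of the 75-base stretches of *S100a4* in common. The counts of *S100a4* would depend on whether the annotation held that transcript, and *Gm42674* is not among the counted symbols.

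Its relatives fell too. Of 15 other S100 genes, 10 were tested, 8 fell and none rose, with a median log2 fold change of -0.81. Among those that fell, *S100a3* (26 and 24 counts in WT, 3 and 6 in CD4/ALK4-KO) and *S100g* (14 and 16, 0 and 2) rested on few counts. With a minimum of 10 counts in every library, 8 were tested and 6 fell. *S100a6* (calcyclin) had 1912 and 2223 CPM in WT and 454 and 777 CPM in CD4/ALK4-KO, and fell by 1.75 (SE 0.24, adjusted p = 7.0e-06). The ratio of *S100a4* to *S100a6* counts was 0.937 and 0.771 in WT and 0.711 and 0.707 in CD4/ALK4-KO. *S100a10* fell by 0.79 and *S100a11* by 0.81, each a call lost without either WT library. The 8 S100 genes called lower became 2 without WT replicate 1 and 3 without WT replicate 2. *S100a9*, a subunit of calprotectin made by neutrophils, stood at a log2 fold change of 0.0056 (adjusted p = 0.99).

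Compared per kilobase of exon, the order of levels changed between the genotypes. In WT, *S100a4* was highest, at 3440 to 3599 CPM per kb, followed by *Dcn* (1040 to 1441), *Lum* (184 to 220), *Pdpn* (72.5 to 82.2), *Acta2* (61.2 to 86.6), *Pdgfra* (40.0 to 55.2) and *Thy1* (19.2 to 25.6). *Tagln*, *Fap* and *Pdgfrb* were lowest, between 4.03 and 6.56 CPM per kb. The ranges of *Pdpn* and *Acta2* overlapped, and that of *Fap* overlapped those of *Tagln* and *Pdgfrb*, which did not overlap each other. The other neighbours in this order were apart. In CD4/ALK4-KO, *S100a4* (648 to 1103 CPM per kb) and *Dcn* (636 to 900) overlapped, *Thy1* (76.3 to 117) came next, and *Lum* (57.8 to 73.9), *Pdgfra* (44.1 to 67.0) and *Pdpn* (54.4 to 55.1) followed, with the range of *Pdgfra* overlapping that of each of the others. *Acta2* (25.1 to 25.8) stood below them, and *Tagln*, *Fap* and *Pdgfrb* were again lowest, between 1.98 and 6.45 CPM per kb. Set against the 13716 tested genes with a length, *S100a4* ranked 6 and 7 in the WT libraries and 66 and 35 in the CD4/ALK4-KO libraries, and *Dcn* ranked 58 and 32 in WT and 40 and 75 in CD4/ALK4-KO.

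Ratios within a library show where the genes parted, since they do not depend on the scaling between libraries. The ratio of *Lum* to *Pdgfra* counts was 1.54 and 0.930 in WT and 0.308 and 0.366 in CD4/ALK4-KO. That of *Dcn* to *Pdgfra* was 5.75 and 5.77 in WT and 2.97 and 3.19 in CD4/ALK4-KO, which separated the genotypes with less spread than *Dcn* alone. That of *Acta2* to *Pdgfra* was 0.503 and 0.257 in WT and 0.0892 and 0.132 in CD4/ALK4-KO. Relative to *Pdgfra*, then, *Acta2*, *Dcn* and *Lum* were lower in both CD4/ALK4-KO libraries. The ratio of the contractile pair (*Acta2* and *Tagln*) to the matrix pair (*Dcn* and *Lum*) was 0.0720 and 0.0412 in WT and 0.0299 and 0.0447 in CD4/ALK4-KO, and the groups overlapped. Replicates also differed in a shared way for some genes, as *Pdgfra*, *Dcn* and *Fap* were all higher in WT replicate 2 than in WT replicate 1, by 1.38 to 1.63 times, and in CD4/ALK4-KO replicate 1 than in replicate 2, by 1.41 to 1.52 times.

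**Figure D4:**
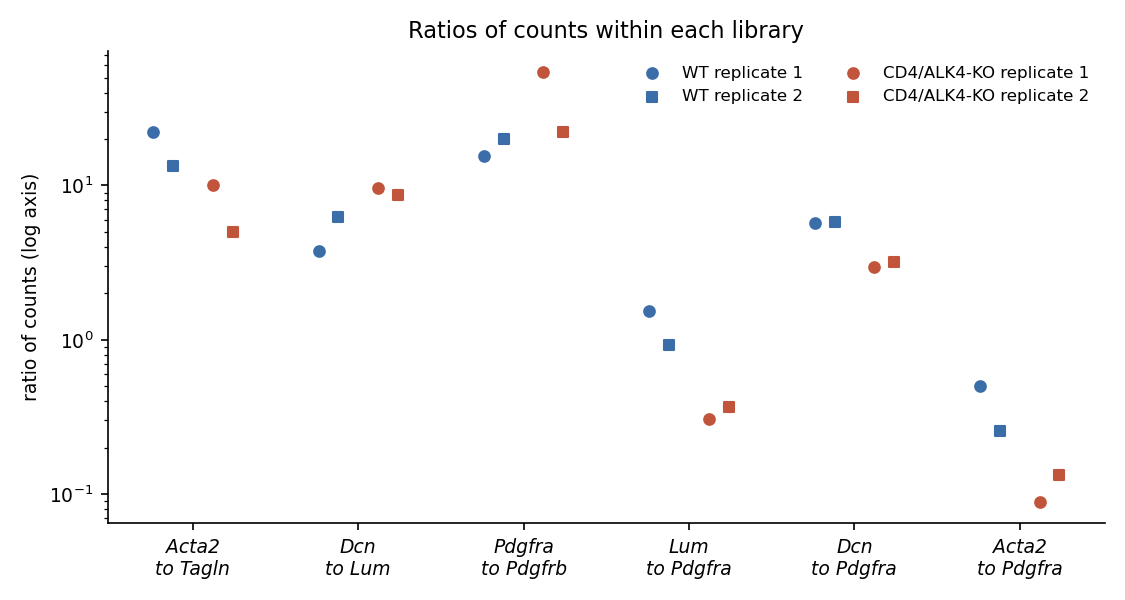
Ratios of counts between pairs of the genes in each library, on a log axis, with blue for WT, red for CD4/ALK4-KO, circles for replicate 1 and squares for replicate 2. The *Dcn* to *Pdgfra* ratios of the WT libraries, 5.75 and 5.77, lie above those of CD4/ALK4-KO, 2.97 and 3.19.

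The tumor tracer genes moved beside the genes that fell. *Rhox5*, a homeobox gene of the reproductive tract and many tumor lines and the most abundant tracer, had 285 and 304 CPM in WT and 35.7 and 42.4 CPM in CD4/ALK4-KO, and fell by 2.91 (adjusted p = 2.5e-08). All 4 tested tracers were lower, by log2 fold changes of -2.91 to -2.22, and *Rhox2a* and *Rhox4b* were at 0 in every library. *Rhox5* fell by more than *S100a4*, *Lum* or *Acta2*, so the ratios of these genes to it restate their fold changes and stood higher in CD4/ALK4-KO. The ratio of *S100a4* to *Rhox5* was 6.29 and 5.63 in WT and 9.04 and 12.9 in CD4/ALK4-KO. That of *Lum* to *Rhox5* was 1.89 and 1.48 against 5.07 and 3.34, and that of *Acta2* to *Rhox5* 0.618 and 0.409 against 1.47 and 1.20. Whether tumor cells transcribed these genes was not tested.

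**Figure D5:**
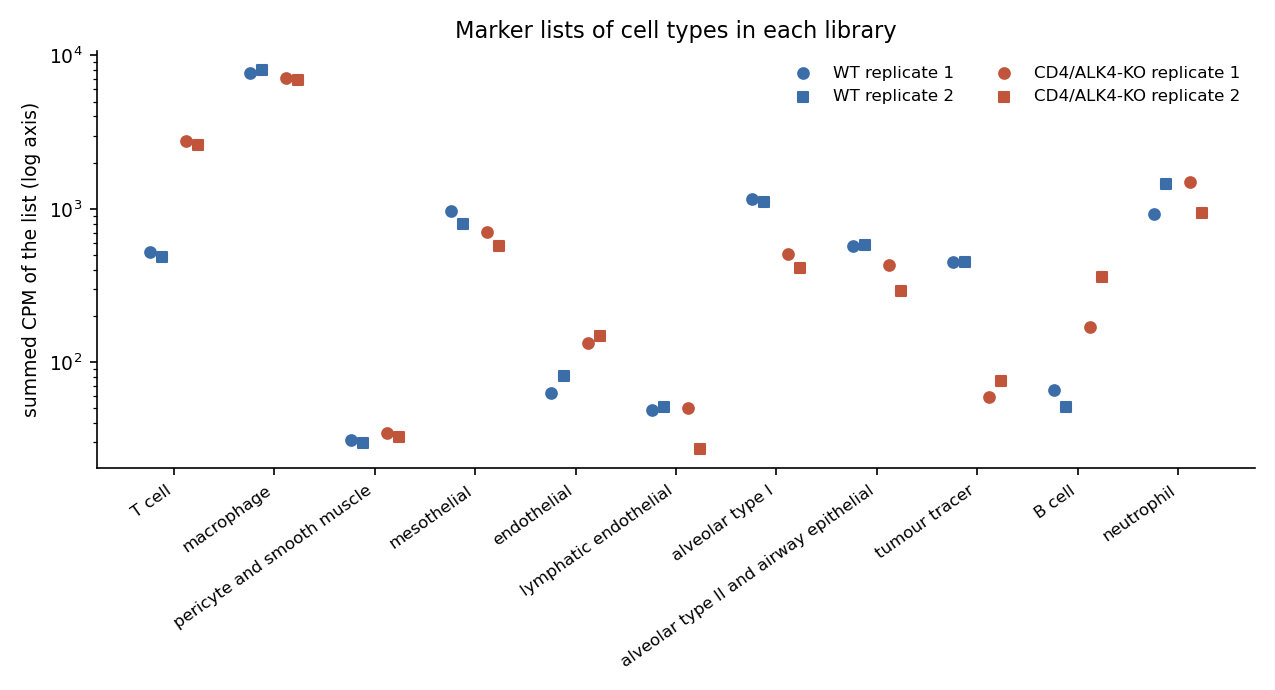
Summed CPM of marker lists of other cell types in each library, on a log axis, with blue for WT, red for CD4/ALK4-KO, circles for replicate 1 and squares for replicate 2. The T cell sums lie at 483 to 522 CPM in WT and 2616 to 2785 CPM in CD4/ALK4-KO, and the tumor tracer sums at 448 CPM in WT and 59.4 to 75.2 CPM in CD4/ALK4-KO.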

How the data were processed

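RNA-Seq was analysed in 4 libraries, 2 for each genotype label, each with 75 bp single-end reads of TruSeq libraries. HISAT2 (alignment to mm10) and HTSeq in intersection-nonempty mode were used by the authors, and the deposited values are raw, unnormalized counts for each gene symbol. The annotation, strand option and versions are not given in the sources used here. From the counts, edgeR 4.0.16 (R 4.3.3) was run with filterByExpr, TMM and a robust quasi-likelihood fit on genotype alone, with Benjamini-Hochberg adjustment over the 13919 genes tested, and an adjusted p under 0.05 was called. Standard errors are the log2 fold change over the square root of F. Replicates of a genotype differed beyond counting noise (chi-square per degree of freedom 16.0 in WT, 28.7 in CD4/ALK4-KO) and were kept apart. Lengths and positions are from GENCODE M21 (GRCm38), which matched 24366 symbols, and length is the union of exons.

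The genes and lists were chosen with earlier results of these data known. All 10 genes were named, with members of the related lists drawn mostly from those with the highest mean counts (up to 4, or 3 for markers). Not all of those were named. Of the Fap peptidase family only *Dpp4* was, and of the myofibroblast inducers only *Tgfb1*. For the unnamed genes with high counts, no separate result is reported here. The alternatives were DESeq2 size factors, upper quartile scaling, a T cell receptor complex scale, a replicate block, no count filter, a minimum of 10 counts in each library, the DESeq2 (1.42.0) Wald test, edgeR's likelihood ratio test and each library left out. The crossed replicate block was added after seeing the data.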

Additional observations from a re-analysis of the deposited data

How the results depend on the processing

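*Acta2*, *Lum* and *S100a4* kept their direction and call under all 13 alternatives. On the T cell receptor complex scale, 48 genes were called higher and 12803 lower, 0 of the 10 genes higher and 9 lower with a median of -2.89, and 0 genes of the related lists higher and 92 lower, and *Pdgfra* (-1.99) and *Thy1* (-0.051) changed sign. The replicate numbers were not shown to pair the libraries: same-numbered libraries deviated from their genotype means with a correlation of -0.26. With the replicate block, all calls moved from 2422 higher and 2140 lower to 1768 and 1444, the 10 genes from 1 higher and 5 lower to 1 and 3, and the related lists from 5 higher and 37 lower to 2 and 30. A crossed pairing, chosen after seeing the data, gave 3118 and 3037 calls over all genes, 1 and 7 of the 10 genes, and 6 and 45 in the related lists. As each library was left out, assuming that the lone library varies like the other group, calls ran from 1103 to 2923 higher and 754 to 2618 lower over all genes, from 1 to 2 higher and 3 to 6 lower among the 10 genes, and from 0 to 7 higher and 20 to 47 lower in the related lists. The lowest counts over all genes came without WT replicate 1 (1103 and 754) and WT replicate 2 (1344 and 1047). The lowest in the related lists came without the same libraries (1 and 20, then 0 and 23). Without WT replicate 2, *Dcn* and *Pdgfrb* lost their calls. Without CD4/ALK4-KO replicate 2, *Pdgfra* was called higher. *Pdgfra* (-0.079 to 0.49) and *Tagln* (-0.72 to 0.30) changed sign as libraries were left out, at -0.079 and 0.30 without CD4/ALK4-KO replicate 1. With 2 libraries a genotype, and *Tagln*, *Fap* and *Pdgfrb* at 62 to 327 counts, small differences were not detectable. The remaining alternatives kept the counts of calls over all genes, over the 10 genes and over the related lists together within 1.5 times, though not those of each single list.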
